A study of Mus musculus with 3 samples.

Results

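Replication-dependent histone genes encode the core histones H2A, H2B, H3 and H4 and the linker histone H1 that package newly copied DNA. They were taken here as the protein-coding genes of the GENCODE annotation of mouse build mm9 whose symbols begin with Hist1h, Hist2h, Hist3h or Hist4h. The rule returned 67 of 22359 protein-coding genes, made up of 6 H1, 19 H2A, 18 H2B, 11 H3 and 13 H4 genes. The rule itself uses symbols and no measured value.

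The chromatin of cells dissociated with Accutase from islets of Langerhans was examined by ATAC-seq, in which a transposase inserts sequencing adapters where DNA is accessible. There was 1 library from wild type (WT) mice, 1 from Taf4 KO mice studied 1 week after inactivation of Taf4 and 1 from Taf4 KO mice studied after 5 weeks, all of a strain labelled C5LBl6. Taf4 is a subunit of TFIID, the general factor that binds core promoters. According to the study's methods, floxed Taf4 was inactivated in adult mice by tamoxifen through a Cre-ERT2 expressed from an insulin promoter, so that islet cells other than beta cells kept the gene, and control animals of the study with intact Taf4 carried the same Cre and received tamoxifen. The number and sex of the animals behind each library, and whether islets were pooled, are not given in the sources used here. The libraries held whole islet cell suspensions, so that fewer cells with an open site and less accessibility per cell cannot be told apart. With 1 library a group there was no replicate, and no p-value was computed between conditions. The files hold peaks, not reads, so the sequencing depth is unknown.

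Most replication-dependent histone genes lie in clusters, and many are arranged as head-to-head pairs, most often of an H2A and an H2B gene that share a short promoter. Their transcription rises in S phase, when NPAT, a coactivator phosphorylated by cyclin E and CDK2, gathers at the clusters in histone locus bodies. The mRNAs carry no poly(A) tail but end in a stem-loop that is bound by SLBP. CCAAT boxes bound by NF-Y, TATA boxes, the octamer bound by Oct-1 in H2B promoters and the H4 element bound by HINFP are known promoter elements of these genes. Adult beta cells divide rarely.

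Of the 67 genes, 54 lay in the Hist1 cluster on chromosome 13 between 21807632 and 24026720, a span of 2.22 Mb. Hist1h2al lay alone on the same chromosome at 51298057 to 51298434, 9 genes formed the Hist2 cluster on chromosome 3, Hist3h2a and Hist3h2ba lay on chromosome 11, and Hist4h4 lay on chromosome 6. Starts of 26 genes formed 13 head-to-head pairs. Merging genes whose starts lay within 1000 bp of each other left 52 promoter units, 14 of them with several genes. A gene and its partner can therefore be called from the same peak, and the genes are not independent of each other.

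The stretches between the starts of 3 pairs are shown, each standing for an outcome that follows. Hist1h2ac and Hist1h2bc, the H2A and H2B genes with the strongest WT peak, had a peak in every library. Hist1h2bf and Hist1h2ad had none at 1 week, and Hist1h2bq and Hist1h2ao had none in any library. The pair Hist1h2ba and Hist1h2aa, with a peak in WT alone, is not shown. The sequences were read from the plus strand of the NCBIM37 genome (mm9). Capitals mark the CCAAT box, the letters of the TATA box (TATAAA) and the octamer ATTTGCAT, each on either strand. The first stretch is chr13:23775817-23776068, the second chr13:23666065-23666250 and the third chr13:21902068-21902236.
Hist1h2ac and Hist1h2bc: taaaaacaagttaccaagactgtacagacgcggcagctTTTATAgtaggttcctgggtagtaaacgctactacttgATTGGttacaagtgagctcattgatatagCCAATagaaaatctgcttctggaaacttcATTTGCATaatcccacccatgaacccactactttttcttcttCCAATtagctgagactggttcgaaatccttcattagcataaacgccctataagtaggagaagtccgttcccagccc
Hist1h2bf and Hist1h2ad: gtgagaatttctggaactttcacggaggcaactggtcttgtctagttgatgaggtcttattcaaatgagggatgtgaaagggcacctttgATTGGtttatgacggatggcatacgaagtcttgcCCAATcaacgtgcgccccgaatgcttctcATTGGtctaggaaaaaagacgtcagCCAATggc
Hist1h2bq and Hist1h2ao: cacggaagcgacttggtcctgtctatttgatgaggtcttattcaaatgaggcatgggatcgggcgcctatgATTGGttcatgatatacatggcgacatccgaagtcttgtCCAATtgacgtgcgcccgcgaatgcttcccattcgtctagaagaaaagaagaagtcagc

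The first stretch held 3 CCAAT boxes, 1 TATAAA and 1 octamer in 252 bases, the second 4 CCAAT boxes in 186 bases and the third 2 CCAAT boxes in 169 bases. The third stretch also occurs, letter for letter on the opposite strand, between the starts of Hist1h2ap and Hist1h2br, with 0 differing bases.

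Over the 250 bases before to 50 bases after the most 5' start, CCAAT on either strand was found in 57 of 67 histone genes (85.1%, Wilson 95% interval 74.7 to 91.7%), against 37.9% of all protein-coding genes. All 19 H2A, 18 H2B and 6 H1 genes held it, whereas 4 of 13 H4 genes did. TATAAA was found in 38 histone genes (56.7%) against 13.4% of all genes. The octamer, ATTTGCAT or ATGCAAAT, was found in 15 histone genes (22.4%) against 1.72% of all genes, 7 of them H2A and 8 H2B. GGTCCG, part of the H4 element, was found in 12 of 13 H4 genes and in 3 other histone genes, against 9.88% of all genes. Each motif was searched on its own on both strands, and a base shared by different motifs counted for each. Matches describe the sequence only, since no measurement of factor binding was made.

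A gene was called accessible where a peak of the deposited list overlapped the stretch from 1000 bp before to 100 bp after any of its annotated starts by at least 1 bp. The authors called broad peaks in each library separately, which gave 60898 peaks in WT islets, 150354 after 1 week and 151725 after 5 weeks on chromosomes 1 to 19, X and Y. The lowest local background of a list, taken as percentile 1 over its peaks and recovered from fold and p-value, was 1.76 times the WT value at 1 week and 2.57 times at 5 weeks. Promoter peaks were found at 6, 5 and 5 of 6 beta cell markers in WT islets and 1 and 5 weeks after inactivation, Ins1, Ins2, Pdx1, Mafa and Nkx6-1 among them each time, at 3, 4 and 4 of 4 alpha cell markers, at 0, 1 and 2 of 2 delta cell markers and at 0, 1 and 0 of 4 immune markers. Stellate and fibroblast markers had peaks at 0, 0 and 3 of 4 genes, duct markers at 1, 1 and 2 of 3, endothelial markers at 1, 2 and 3 of 4 and acinar markers at 0, 0 and 1 of 5. Slc2a2, the remaining beta cell marker, had a peak in WT alone. Among the markers of non-endocrine cells, Cpa1, Prss2, Cel, Amy2a5, Krt19, Pecam1, Col1a1, Cd68, Lyz2 and Cd3e had no promoter peak in any library. Ptf1a, Cdh5, Col1a2, Pdgfrb and Des had a peak at 5 weeks alone. Cftr and Tie1 had a peak at 1 week and at 5 weeks but not in WT, and Ptprc at 1 week alone. Kdr had a peak in every library, and Sox9 in WT and at 5 weeks. The part of other cell types in the values below was not tested.

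Histone promoters were largely open in WT islet cells, and fewer were called at 1 week than in WT or at 5 weeks. In WT 58 of 67 genes had a promoter peak (86.6%, Wilson 95% interval 76.4 to 92.8%), against 59.0% of all protein-coding genes. At 1 week 42 had a peak (62.7%, 50.7 to 73.3%) against 55.9% of all genes. At 5 weeks 56 had a peak (83.6%, 72.9 to 90.6%) against 65.6% of all genes. The share of histone genes was thus well above that of all genes in WT and at 5 weeks, and the interval at 1 week contained the share of all genes. These intervals treat genes as independent and cover counting error only.

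The calls were nested. Of the 67 genes, 42 had a peak in all 3 libraries, 14 in WT and at 5 weeks, 2 in WT alone and 9 in none. No gene had a peak in a Taf4 KO library without having one in WT. At 1 week 16 of 58 WT calls were absent (27.6%, Wilson 95% interval 17.8 to 40.2%) against 14.5% of all genes with a WT call. At 5 weeks 2 of 58 were absent (3.45%) against 1.89% of all genes. The 9 genes without a WT call gained none at 1 week or at 5 weeks, where 13.3% and 18.9% of all genes without a WT call gained one. Of the 9 genes without a WT call, 6 lie in inverted copies, described below, where few reads can be placed. Those could hardly gain a call, so the contrast rests on the few remaining genes and shows little. Counted as promoter units, 45, 32 and 44 of 52 had a peak in WT islets and 1 and 5 weeks after inactivation.

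**Figure D1:**
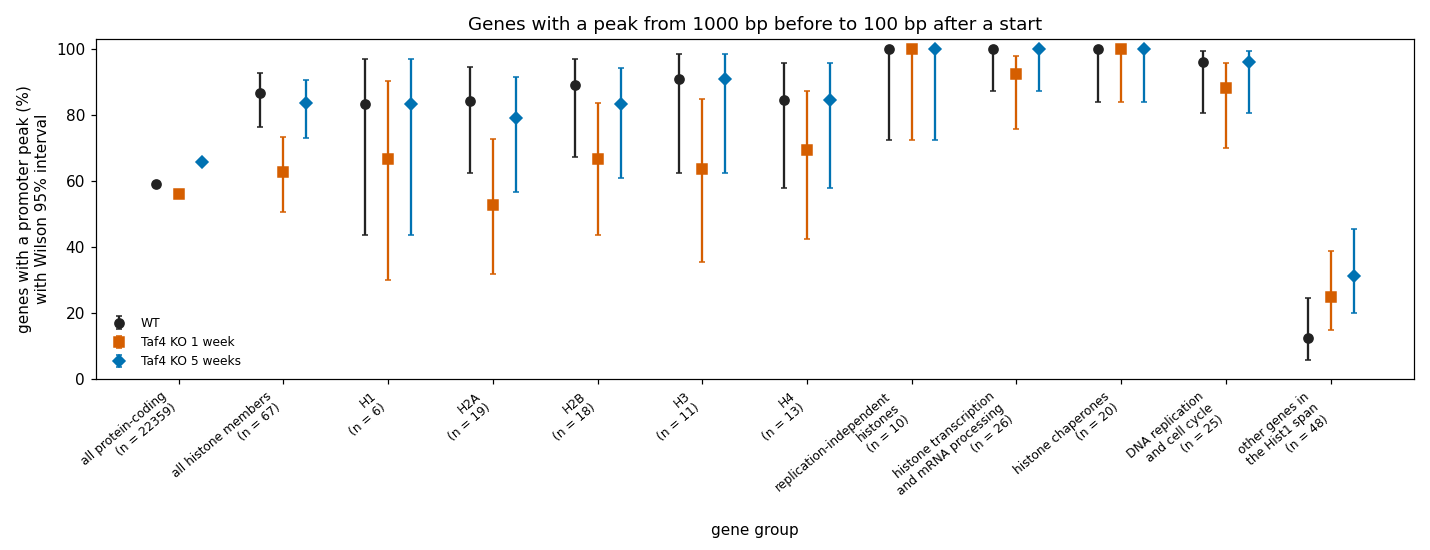
Share of genes with a promoter peak (y axis, %, with Wilson 95% intervals) in WT, Taf4 KO 1 week and Taf4 KO 5 weeks for all protein-coding genes, the histone genes and their families, and related gene lists (x axis, number of genes in brackets). Of the histone genes 58, 42 and 56 of 67 had a peak, and each family, like all protein-coding genes, had its lowest share at 1 week.

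The histone gene peaks themselves gave a similar count. The 58 WT calls rested on 39 different peaks, of which 29 were overlapped by a peak at 1 week (74.4%, Wilson 95% interval 58.9 to 85.4%) and 38 at 5 weeks (97.4%). Among the 11960 WT peaks that gave the calls of all genes, 86.6% were overlapped at 1 week and 98.1% at 5 weeks. At 1 week the histone share was therefore lower than the share of all promoter peaks, and its interval ended just below that share.

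The families of the nucleosome core shared the pattern. H2A genes, whose product pairs with H2B, had a peak at 16, 10 and 15 of 19 genes in WT islets and 1 and 5 weeks after inactivation. H2B genes had 16, 12 and 15 of 18. H3 genes, which with H4 form the central tetramer, had 10, 7 and 10 of 11, and H4 genes had 11, 9 and 11 of 13. Every core family had fewer calls at 1 week than at 5 weeks, and the Wilson intervals of the families overlapped. All protein-coding genes also had fewer, with shares of 59.0, 55.9 and 65.6% in WT, at 1 and at 5 weeks. At 1 week 52.6% of H2A, 66.7% of H2B, 63.6% of H3 and 69.2% of H4 genes had a peak, so the H2A share was below that of all genes. The H2A, H2B and H4 totals include 6 genes in inverted copies, described below, where few reads can be placed. Their shares are therefore not directly comparable with those of H3 and H1. H1 genes, which bind linker DNA between nucleosomes, had 5, 4 and 5 of 6. Of genes in head-to-head pairs 22, 18 and 20 of 26 had a peak.

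**Figure D2:**
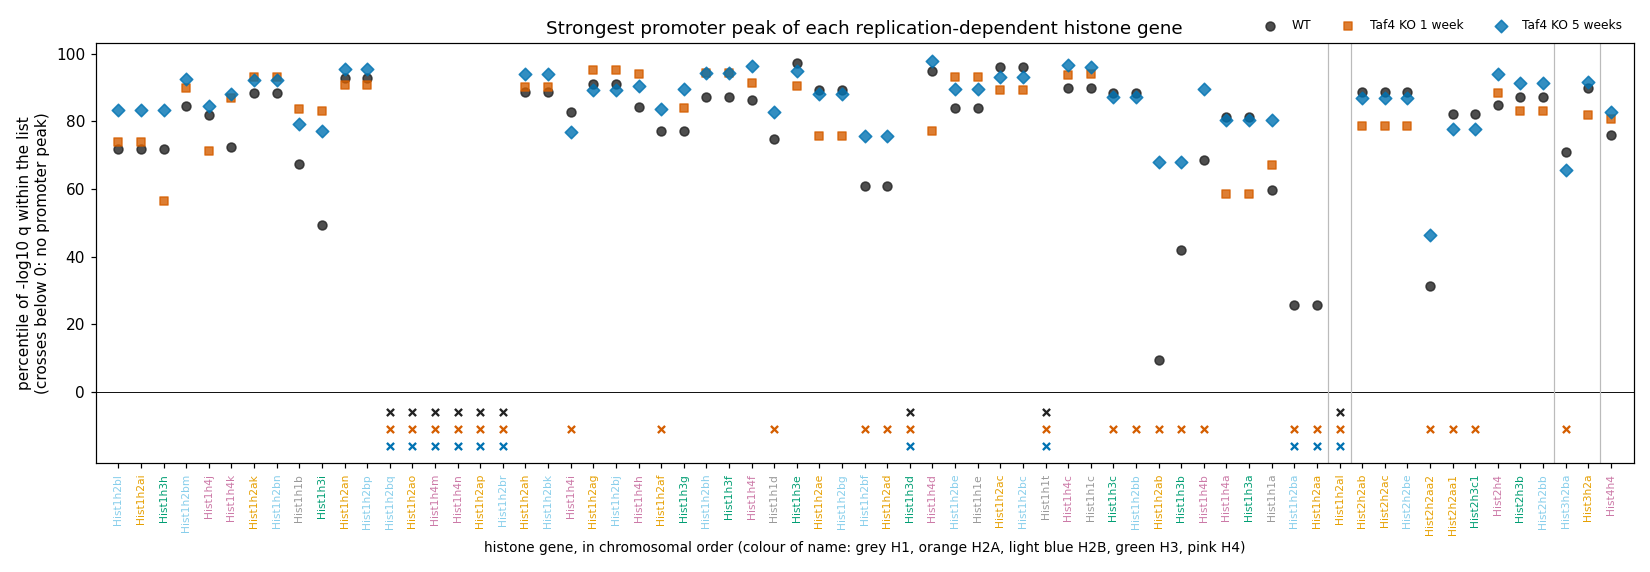
Percentile of the strongest promoter peak of each histone gene within its own peak list (y axis, by -log10 q), for WT, Taf4 KO 1 week and Taf4 KO 5 weeks, with genes in chromosomal order (x axis). Crosses below 0 stand for genes without a promoter peak, and the 16 genes with an orange cross only, or an orange and a blue one without a black one, lost the WT call.

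Among genes with a peak in every library, Hist1h3e, an H3 gene, had the highest WT value of all histone genes, a -log10 q of 23.3 with 6.69-fold signal over the local background. Its fold was 3.72 at 1 week and 4.58 at 5 weeks, and its -log10 q was 7.25 and 18.4. Both measures were highest in WT and lowest at 1 week. The genes named in this paragraph and the next were chosen because their WT peaks were among the strongest of their family. This choice by itself favours a highest value in WT. The shared peak of Hist1h2ac and Hist1h2bc, whose promoter is the first sequence shown, had a fold of 5.44 in WT islets, 3.61 after 1 week and 4.33 after 5 weeks, and a -log10 q of 21.1, 6.77 and 16.2. The order of the libraries was the same as for Hist1h3e, but the first place of WT is favoured by the choice of genes. Hist1h2an and Hist1h2bp, another H2A and H2B pair, shared a peak of 4.97-fold in WT islets, 3.75-fold after 1 week and 4.82-fold after 5 weeks.

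Hist1h4d, an H4 gene, had a fold of 5.14 in WT islets, 2.88 after 1 week and 5.08 after 5 weeks, and its -log10 q was 19.8, 3.66 and 24.4. It was the strongest histone promoter peak at 5 weeks by -log10 q, and at 1 week it stood at percentile 77.1 of its list. Hist1h4c, a further H4 gene, had folds of 4.79, 3.99 and 4.85. Hist1h1c, which encodes a linker histone, had folds of 4.21, 4.11 and 4.69 and a -log10 q of 14.9, 9.49 and 20.2. Hist1h1e, a linker histone gene that shared its peak with the annotation of Hist1h2be, had folds of 3.87, 3.90 and 3.93. For these last linker histone genes the fold differed little between libraries while -log10 q was lowest at 1 week.

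Outside the large clusters, Hist3h2a had a peak in every library, with folds of 4.10 in WT islets, 3.07 after 1 week and 3.97 after 5 weeks. Its neighbour Hist3h2ba, an H2B gene, had a fold of 3.89 in WT and 2.58 at 5 weeks and no peak at 1 week, where the nearest one lay 5099 bp from its start. Hist4h4 had folds of 3.20, 2.93 and 2.93, lower than Hist3h2a in each library.

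Over the genes with a peak in each pair of libraries, fold was lower at 1 week than in WT in 37 of 42 histone genes and in 83.3% of all protein-coding genes. The median fold of these 42 histone genes was 4.19 in WT and 3.40 at 1 week, with a median difference of -0.82. At 5 weeks fold was lower than in WT in 43 of 56 histone genes (76.8%) and in 76.6% of all genes, and the median difference of the histone genes was -0.19. Over all genes the median difference was -0.81 at 1 week and -0.40 at 5 weeks. Most histone genes thus changed in the same direction as most genes, while at 5 weeks their median difference was smaller in size. Fold includes a pseudocount of 1 added to signal and background. Without it, signal over background was lower at 1 week in 33 of 42 histone genes (78.6%) and in 82.9% of all genes. At 5 weeks it was lower in 44 of 56 histone genes (78.6%) and in 82.3% of all genes, with median differences of -0.35 and -0.59. Genes that lost the WT call are not part of these measures. The value of -log10 q, which depends on the number of reads as well as on fold, was lower at 1 week in 41 of 42 histone genes and in 81.3% of all genes.

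Ranks within each list differed less between libraries. The percentile of a peak is the share of its own list with an equal or lower -log10 q. The median percentile of the called histone genes was 84.4 in WT islets, 87.6 after 1 week and 88.1 after 5 weeks, and that of all called genes was 85.1, 87.7 and 89.7. Among genes with a peak in both libraries, percentile was higher at 1 week than in WT in 24 of 42 histone genes (57.1%) and in 59.9% of all genes. At 5 weeks it was higher in 38 of 56 histone genes (67.9%) and in 80.0% of all genes. The lists differ in length, and the long Taf4 KO lists hold more weak peaks beneath any promoter peak.

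**Figure D3:**
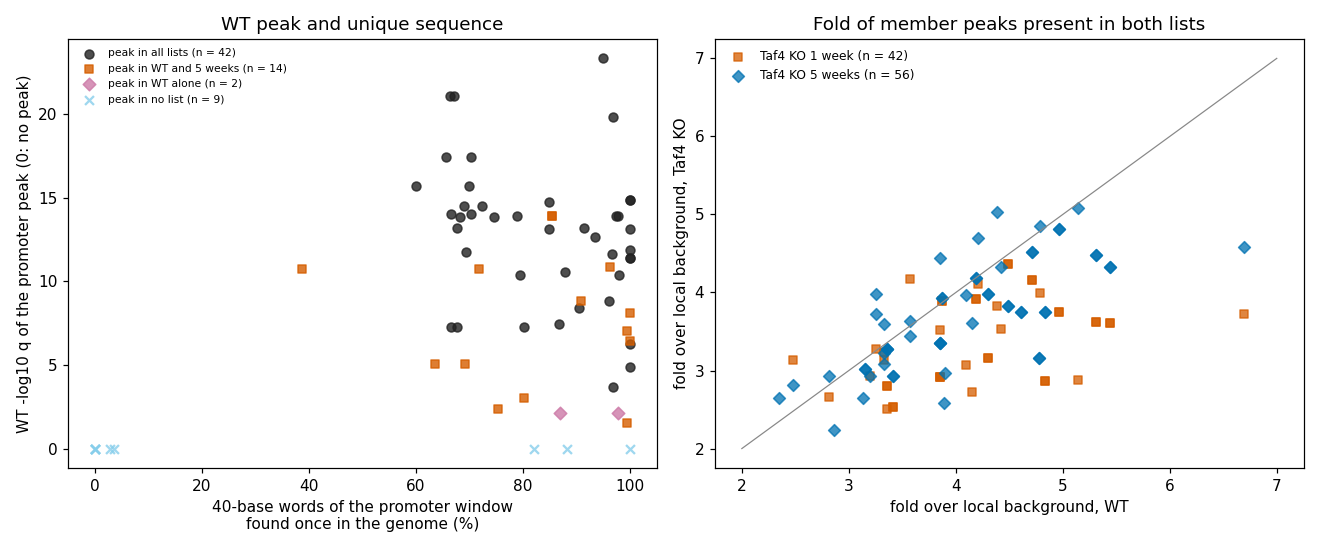
Left, WT -log10 q of the promoter peak (y axis, 0 for no peak) against the percent of 40-base words of the promoter window found once in the genome (x axis), a point for each histone gene. Right, fold over local background in a Taf4 KO library (y axis) against WT (x axis) for genes with a peak in both, with the line of equality. The 6 genes at the lower left had no peak in any library, and 37 of 42 points at 1 week and 43 of 56 at 5 weeks lie below the line.

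The 16 genes without a call at 1 week were counted by cluster and by block. Of the Hist1 cluster, 12 of 46 WT calls were absent, of Hist2 3 of 9, of Hist3 1 of 2 and of Hist4 0 of 1. The Hist1 cluster falls into a block of 23 genes and a block of 31 genes, separated by 1.49 Mb without histone genes. In the first block 1 of 17 WT calls was absent at 1 week (5.88%, Wilson 95% interval 1.05 to 27.0%), that of Hist1h4i. In the second block 11 of 29 were absent (37.9%, 22.7 to 56.0%). The intervals of the blocks overlapped, and they treat genes as independent although neighbouring genes can share a peak.

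Hist1h4i, an H4 gene, had a WT peak of 3.89-fold and -log10 q of 10.9 and a 5-week peak of 2.97-fold and 6.38. At 1 week no peak overlapped its WT peak, although the shared peak of the neighbouring pair Hist1h2ag and Hist1h2bj, with a -log10 q of 10.7, lay 1540 bp from its start. This absence therefore stood beside the strongest histone promoter peak of the 1-week list.

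Hist1h3c, Hist1h2bb, Hist1h2ab, Hist1h3b and Hist1h4b follow each other in the second block with no other protein-coding gene between them, on chromosome 13 from 23836842 to 23849296. None of them had a peak at 1 week. The 12.5 kb that they span held 4 peaks in WT islets, 0 after 1 week and 3 after 5 weeks. Hist1h3c, an H3 gene, and Hist1h2bb, an H2B gene, shared a WT peak of 4.61-fold and -log10 q of 13.9, at percentile 88.5 of its list, and a 5-week peak of 3.75-fold and 11.2. This was the strongest WT peak among the absent calls. Hist1h2ab, an H2A gene, had 2.34-fold in WT and 2.65-fold at 5 weeks, Hist1h3b, an H3 gene, had 3.13-fold in WT and the same 5-week peak as Hist1h2ab, and Hist1h4b, an H4 gene, had 3.26-fold in WT and 3.98-fold at 5 weeks. The WT -log10 q of Hist1h2ab was 1.56, at percentile 9.49, so that this run held both strong and weak WT peaks. On one side of the run Hist1h1c kept its peak at 1 week, with a -log10 q of 9.49, and on the other side Hist1h4a did, with 2.35.

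**Figure D4:**
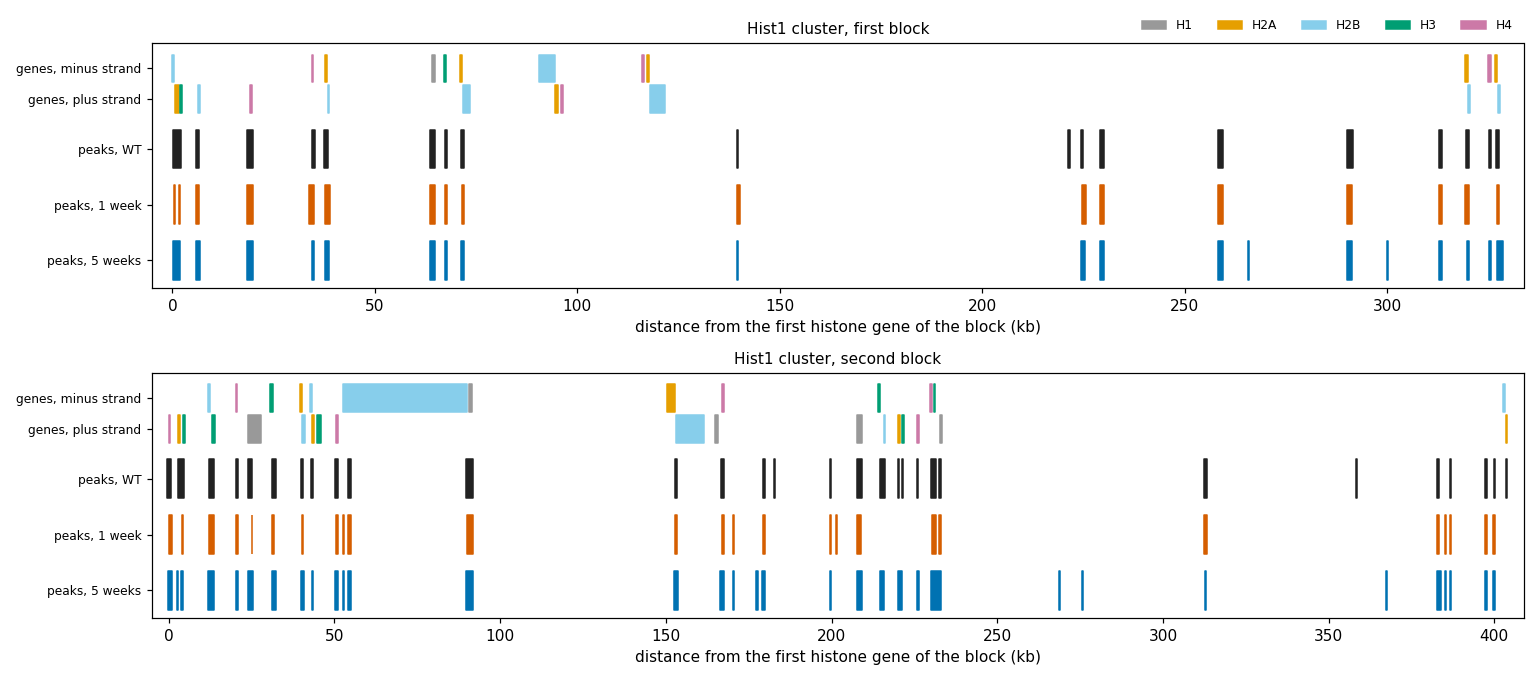
Histone genes by strand and family, and all peaks of WT, Taf4 KO 1 week and Taf4 KO 5 weeks, in both blocks of the Hist1 cluster against distance from the first histone gene of each block (x axis, kb), drawn to scale with a thin outline. The first block had 18, 17 and 19 peaks and the second 30, 26 and 33, with no 1-week peak over the 5 consecutive genes from Hist1h3c to Hist1h4b.

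A shorter run lay in the Hist2 cluster on chromosome 3 from 96043639 to 96052431. Hist2h2aa2 and Hist2h2aa1, which are H2A genes, and Hist2h3c1, an H3 gene, are consecutive there, and their 8.79 kb held 2 peaks in WT islets, 0 after 1 week and 2 after 5 weeks. Hist2h2aa1 and Hist2h3c1 shared a WT peak of 4.78-fold and -log10 q of 10.7 and a 5-week peak of 3.16-fold and 6.73. Hist2h2aa2 had 2.87-fold in WT and 2.24-fold at 5 weeks, with a -log10 q of 2.37 and 2.22. These genes have near-identical copies, and 75.3, 71.8 and 70.3% of the 40-base words in the windows at the most 5' starts of Hist2h2aa2, Hist2h2aa1 and Hist2h3c1 occur once in the genome, so their values are uncertain. Over the windows of both annotated starts of Hist2h3c1 the share was 38.7%. The other 6 Hist2 genes had a peak in every library.

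In Hist1h2bf and Hist1h2ad, the pair whose promoter is the second sequence shown, the shared peak was 3.15-fold in WT and 3.02-fold at 5 weeks, with a -log10 q of 5.06 and 6.02. At 1 week the nearest peak lay 2760 bp from the start of Hist1h2bf and 2945 bp from that of Hist1h2ad. Hist1h2af, an H2A gene, and Hist1h1d, a linker histone gene, differed from the rest of the absent calls, because a 1-week peak overlapped their WT peak but lay 1202 and 1006 bp from the start, outside the window. Their folds were 3.32 and 3.57 in WT and 3.22 and 3.44 at 5 weeks.

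Hist1h2ba and Hist1h2aa, an H2B and H2A pair known for expression in testis, had the only WT calls that were absent both at 1 week and at 5 weeks. Their shared WT peak was 2.85-fold with a -log10 q of 2.11, at percentile 25.8. It lay inside Hist1h2aa and covered the start of neither gene. Hist1h1t, the testis linker histone gene, had no peak in any library although 100% of the words in its window were unique. The 2 calls of the testis pair were thus weak in WT.

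WT peaks of the 16 genes without a call at 1 week had a median -log10 q of 6.75 (range 1.56 to 13.9), and those of the 42 genes that kept it 13.2 (3.65 to 23.3). The ranges overlapped over most of their length. The medians of unique words in the window, 86.2 and 85.8%, were close to each other. When the 13197 genes with a WT call were divided into quintiles (5 groups of equal size) by WT -log10 q, 7 of 9, 4 of 11, 5 of 25, 0 of 10 and 0 of 3 histone genes had no call at 1 week from the weakest to the strongest quintile. Among all genes the shares were 36.1, 16.1, 11.3, 6.40 and 2.39%. The histone share was above that of all genes in the 3 weaker quintiles, with few genes in each.

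Absence at 1 week also moved with base composition over all genes. Across GC quintiles, set by the surrounding 1 Mb, it was 2.84, 7.50, 11.2, 20.1 and 30.7% from the lowest to the highest GC. The Hist1 cluster lay at 41.1 to 42.9% GC, within the lowest quintiles, and the median of all genes was 44.1%. There 12 of 46 Hist1 calls were absent (26.1%) against 273 of 5279 genes of the 2 lowest quintiles (5.17%). Split again by WT strength, the Hist1 genes gave 6 of 8, 3 of 9 and 3 of 17 in the 3 weaker quintiles against 15.6, 5.36 and 3.68% of all genes of the same GC range, and 0 of 9 and 0 of 3 in the stronger ones. These divisions were chosen after the values were seen, and neighbouring genes share peaks.

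Of the 9 genes without a peak in any library, 6 lie in a segment of the first Hist1 block that is present in inverted copies. The copy with Hist1h2bq, Hist1h2ao and Hist1h4m spans 21897281 to 21905016 on chromosome 13 and the copy with Hist1h4n, Hist1h2ap and Hist1h2br spans 21922636 to 21930399, both taken with 1000 bp on each side of the genes. Of the 40-base words of the first copy 89.5% recur on the opposite strand of the second, and only 1.38 and 2.74% of the words of the copies occur once in the genome. No peak of any library lay in either copy. The authors kept reads that aligned to a single place, with a seed of 40 bases, so that few reads can be placed in these copies, and the absence of a peak there says nothing about the accessibility of these H2A, H2B and H4 genes. The shared promoter letters are those of the third sequence shown.

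The other 3 genes without a peak, the H3 gene Hist1h3d, Hist1h1t and the H2A gene Hist1h2al, had 88.3, 100 and 82.1% unique words. Leaving out the 6 genes of the inverted copies, 58, 42 and 56 of 61 histone genes had a peak in WT islets and 1 and 5 weeks after inactivation (95.1, 68.9 and 91.8%). Among protein-coding genes with at least 10% unique words in the window, the shares were 60.8, 57.7 and 67.7%. The sets were not matched beyond this floor, since the median of unique words was 84.8% over the 67 histone genes and 99.5% over all genes. The difference in share between histone genes and all genes was larger in each library once genes below 10% were left out. A larger difference was to be foreseen, because the 6 histone genes left out had no call and were a larger part of their set than the 689 of 22359 genes.

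**Figure D5:**
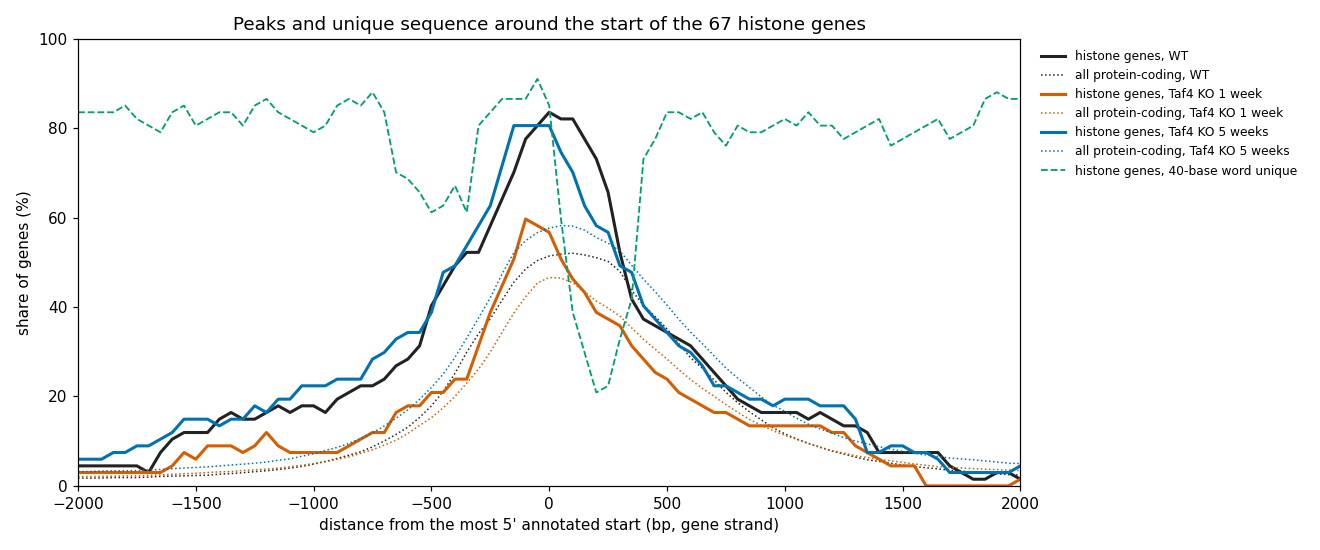
Share of the 67 histone genes (solid lines) and of all protein-coding genes (dotted lines) covered by a peak, and share of histone genes whose 40-base word is unique (dashed line), against distance from the most 5' start on the gene's strand (bp). At the start 83.6% of histone genes were covered in WT islets, 56.7% after 1 week and 80.6% after 5 weeks, and unique words fell to 20.9% at 200 bp inside the genes.

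Peaks sat over the start. The strongest promoter peak covered an annotated start in 56 of 58 genes in WT, 38 of 42 at 1 week and 54 of 56 at 5 weeks. The median length of these peaks was 1139 bp in WT, 880 bp at 1 week and 1250 bp at 5 weeks, against 1010, 868 and 1073 bp over all called genes. At 200 bp inside the gene, where the coding sequence of different copies is alike and 20.9% of histone genes had a unique word, 73.1% were still covered by a peak in WT islets, 38.8% after 1 week and 58.2% after 5 weeks, and 51.1, 41.3 and 55.6% of all genes were. From the start to this point the share covered fell by more at 1 week and at 5 weeks than in WT. It went from 83.6 to 73.1% in WT, from 56.7 to 38.8% at 1 week and from 80.6 to 58.2% at 5 weeks.

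Around the genes, the number of peaks in the histone blocks changed little between libraries, while the interval between them held many more in the full Taf4 KO lists. The first block had 18 peaks in WT islets, 17 after 1 week and 19 after 5 weeks, of which 11, 11 and 11 lay at histone promoters. The second block had 30, 26 and 33, of which 20, 13 and 18 lay at histone promoters, and the peaks covered 24.6, 16.2 and 29.3 kb of it. The interval without histone genes had 11 peaks in WT islets, 151 after 1 week and 162 after 5 weeks. This is 7.40, 102 and 109 peaks per Mb, against 22.9, 56.6 and 57.1 per Mb over the genome.

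Most peaks of the interval in the Taf4 KO lists were weak. The median -log10 q over all its peaks was 5.67 in WT islets, 1.95 after 1 week and 1.94 after 5 weeks, while the medians in the second block were 8.45, 5.54 and 11.2. The size of the excess over the 11 WT peaks depended on how many weak peaks were kept, and the stricter lists below kept part of it. With the Taf4 KO lists reduced to their strongest peaks, as many as in WT, the interval held 38 peaks at 1 week and 27 at 5 weeks. Lists of equal covered length gave 34 and 13, and lists scaled to the WT background gave 24 and 13. When every list was limited to peaks whose -log10 q reached 3, the interval held 10 WT peaks, 20 peaks after 1 week and 27 after 5 weeks. With a limit of 5 it held 7 WT peaks, 9 peaks after 1 week and 11 after 5 weeks.

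Of the 48 other protein-coding genes between the first and last Hist1 gene, 33 of which are Vmn1r vomeronasal receptor genes, 6 had a promoter peak in WT islets, 12 after 1 week and 15 after 5 weeks. For the Vmn1r genes alone these counts were 0, 5 and 5. Of the 42 other genes without a WT call, 6 had one at 1 week and 9 at 5 weeks, shares close to the 13.3% and 18.9% of all genes given above.

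Genes that act on histone genes or their products were called in nearly every library. Of 26 genes for histone gene transcription and mRNA processing, 26 had a promoter peak in WT islets, 24 after 1 week and 26 after 5 weeks. Npat, the S-phase coactivator, had a -log10 q of 33.4 in WT islets, 12.8 after 1 week and 23.6 after 5 weeks, Hinfp, the H4 promoter factor, 40.6, 16.6 and 47.2, and Slbp, the stem-loop binding protein, 28.0, 8.02 and 25.6. The absent calls were Ncbp2, a subunit of the cap-binding complex, and Srrt, which encodes ARS2. Of 10 replication-independent histone genes, whose products such as H3.3 and H2A.Z are made throughout the cell cycle, 10 had a peak in each library, and of 20 histone chaperone genes 20 did.

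Of 25 genes of DNA replication and the cell cycle 24, 22 and 24 had a peak. Mcm2, part of the replicative helicase, and Gins1, part of the complex that activates it, had none at 1 week, and Tk1, thymidine kinase, had none in any library. Absent calls at 1 week were thus 16 of 58 in the replication-dependent histone genes, 0 of 10 in the replication-independent ones, 2 of 26 in the transcription and processing list and 2 of 24 in the replication list, against 14.5% of all genes. The lists also differed in WT strength, with a median WT -log10 q of 11.7, 13.5, 17.0 and 19.2 in the same order. The part of WT strength in these counts was not tested. With 1 library per group the counts carry no test of a difference between lists.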

How the data were processed

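ATAC-seq was carried out by the authors on islet cells, with 1 library each for WT, Taf4 KO 1 week and Taf4 KO 5 weeks, grouped by the genotype and time labels. The study's methods give alignment to mm9 with Bowtie, keeping reads with a single best place. The submitters' processing notes name bcl2fastq 2.17.1.14, Bowtie 1.0.0 and MACS2 2.1.1. The deposited broad peak lists hold, for each peak and library, a fold (ratio) over the local background, a -log10 p-value and a -log10 q-value from the authors' peak caller, and a score that was not used. A control library, duplicate removal, shifting of reads for the transposase and read length are not given in the sources used here. In each list 2 peaks outside chromosomes 1 to 19, X and Y were left out.

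Peaks were joined to promoters with Python 3.11.15, numpy 2.4.6, pandas 2.3.3 and scipy 1.17.1, and the GENCODE annotation of the same build gave 46015 starts. A gene took the peak in its window with the highest -log10 q. Local background was recovered from fold, with a pseudocount of 1, and the Poisson p-value, and its floor is percentile 1 of a list. Words of 40 bases were counted on both strands of the genome, and 75-base words gave the same 6 genes without unique sequence. Calls and word counts were tested on simulated data. Shares carry Wilson 95% intervals. Named genes were those whose calls differed between lists, the 2 strongest in WT and those never called in each family, the Hist3 and Hist4 loci and the testis genes, 36 in all. The members and lists were chosen with earlier results of these data known. Alternatives were stricter q, lists of equal number or covered length, lists scaled to the WT background, other windows, and promoter units.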

Additional observations from a re-analysis of the deposited data

How the results depend on the processing

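In each alternative fewer histone genes were called at 1 week than in WT. The same held for all protein-coding genes in each alternative in which they were counted. Between WT and 5 weeks the order of the calls, 58 and 56 in the full lists, turned with stricter q, and so did the order of the span peaks under some alternatives. With peaks of -log10 q of at least 3 the calls were 54, 38 and 55 in WT islets and 1 and 5 weeks after inactivation, with 16 WT calls absent at 1 week, 0 absent and 1 gained at 5 weeks, and 54, 57 and 74 peaks in the Hist1 and Hist2 spans in WT, at 1 and at 5 weeks, against 64, 197 and 219 in the full lists. With -log10 q of at least 5 the calls were 51, 22 and 52, with 29 absent at 1 week, 1 absent and 2 gained at 5 weeks, and 46, 33 and 55 span peaks in the same order, fewer at 1 week than in WT. Over all genes 21.3 and 35.9% of WT calls were then absent at 1 week. With the limit of 3, 53.8, 44.9 and 59.0% of all genes were called in WT, at 1 and at 5 weeks. With the limit of 5 these shares were 48.6, 33.5 and 54.4%. The 22 of 67 histone genes called at 1 week with the limit of 5 were a share close to that of all genes. Lists of equal number gave 58, 39 and 55 calls, 19 and 3 absent, and 79 and 73 span peaks at 1 and 5 weeks against 64 in WT. Lists of equal covered length gave 58, 39 and 52 calls, 19 and 6 absent, and 74 and 57 span peaks, the second below the 64 of WT. Lists scaled to the WT background gave 58, 39 and 52 calls, 19 and 6 absent, and 63 and 57 span peaks, both below the 64 of WT. Over all genes 20.6, 21.1 and 22.6% of WT calls were absent at 1 week in these 3 alternatives and 4.71, 7.63 and 7.56% at 5 weeks. In the same order 59.0, 59.0 and 58.9% of all genes were called in WT. At 1 week 48.8, 48.4 and 47.1% were called, and at 5 weeks 59.0, 56.1 and 56.0%. Counted as promoter units, 13 WT calls were absent at 1 week and 1 at 5 weeks. With reciprocal overlap of 50%, 61.5% of WT histone peaks were overlapped at 1 week and 74.4% at 5 weeks. The cause of these changes was not tested beyond what stricter lists remove by construction. Hist1h4a kept its 1-week call in 4 of 10 alternatives, Hist1h3a and Hist1h3h in 5, and Hist2h2aa2 its 5-week call in 4. These genes were chosen after their values were seen.

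Depth is unknown and no library was replicated, so a difference between libraries cannot be told apart from a difference between conditions. No paired analysis was possible because each group holds 1 library. Near-identical copies limit what uniquely placed reads can show.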
